A study of Mus musculus with 6 samples.

Results

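Gpld1 encodes the glycosylphosphatidylinositol-specific phospholipase D, an enzyme that cuts the glycolipid anchors by which many proteins are held on the outer face of the plasma membrane. It was examined here together with 8 genes for such GPI-anchored surface proteins of lymphocytes, namely Ly6a, Ly6c1, Ly6e, Ly6d, Thy1, Cd48, Cd24a and Cd52. The members were the non-control probes that carry one of these 9 gene names on the array, which gave 11 probes of the 41174 on the array, with 2 probes each for Thy1 and Cd48 and 1 for every other gene. Gpld1 was selected on its signal, which was higher in the cells without miR-31 on these same arrays, so its difference between genotypes is described and not tested. The other 8 genes were named for their anchor.

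The arrays compared induced regulatory T (iTreg) cells, with and without miR-31, after 4 days of culture. The miR-31-deficient (cKO) cells came from miR-31fl/fl mice in which CD4Cre, a Cre recombinase driven by the Cd4 promoter and therefore active in all cells that have expressed Cd4, removed the microRNA. The control cells came from miR-31fl/fl mice without Cre. Cre and the deletion thus go together, and an effect of Cre cannot be told apart from one of miR-31. Both groups were of the C57BL/6 strain and 6 weeks of age, and both were cultured alike. The starting cells were splenic and naive, sorted as CD4+CD25-Foxp3gfp-CD62Lhi. Antibodies to CD3 (5 μg/ml, on the plate) and CD28 (2 μg/ml, in the medium) stimulated them, and TGF-β1 (5 ng/ml) and IL-2 were added to induce regulatory T cells. The dose of IL-2 is 40 ng/ml in the labels and lower in the study's methods. There were 3 arrays per genotype, and per the study's methods the cells were taken from 3 mice of each genotype. The labels number the arrays without naming the mouse.

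A GPI anchor is built on the endoplasmic reticulum membrane by the enzymes of the Pig family and is joined to a protein in place of its carboxy-terminal peptide. Anchored proteins have no cytoplasmic part and gather in lipid-rich membrane domains, where several of them modulate signals from the T-cell receptor. Phospholipases that act on the anchor release the protein from the cell surface. The arrays measure transcripts, so neither anchor cleavage nor surface protein was measured.

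The microRNA removed is shown first, with its seed (bases 2 to 8 from the 5′ end) in capitals, since it is what separates the groups. It lies on chromosome 4 (88910614 to 88910635, minus strand, GRCm38.p6) in RefSeq.

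mmu-miR-31-5p: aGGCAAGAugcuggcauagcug

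No probe on the array is named for miR-31, so its loss was not checked on these arrays. The DNA match of the seed, TCTTGCC, was in 0 of the 11 member probes, read on the transcript strand alone, and in 0.323% of all 41174 probes. That search covers only the 60 bases of each probe and says nothing about the rest of the transcript.

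The next sequences are stretches of 30 bases of the 60-base probes as the scanner files give them, and they show where the probes of 2 members are alike and where they differ. Ly6a and Ly6c1 are paralogs, and over the best ungapped stretch their probes share 26 of 30 bases. Capitals mark the 4 bases that differ.

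Ly6a: gttatagaagCtccaaGgtgggAGtagtgt

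Ly6c1: gttatagaagGtccaaTgtgggGAtagtgt

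The Ly6c1 probe also lists a transcript of Ly6c2, the neighbouring paralog, so its signal may hold both and is uncertain to that extent. None of the 11 member probes shares a run of 16 bases with another probe of the array. That search was not made against transcripts, so it does not show that a probe is specific. The Gpld1 result and the Cd52 result each rest on a single probe, and the first 30 bases of these follow.

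Gpld1: cttagcttaaagaaggtaggaactgtggag

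Cd52: gggaagggttgatagcagatatccaaggag

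The Thy1 probes read different parts of the transcript. The first 30 bases of the brighter probe (probe 1) and of the dimmer probe (probe 2) are shown because each gives its own value for this gene.

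Thy1 probe 1: cactgctacagcatctcaccgaggaaagaa

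Thy1 probe 2: gcgcgaatcccatgagctccaataaaagta

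All values are log2 of the background-subtracted signal minus the 75th percentile of that array, so 0 is the signal at that percentile. A level is given on this scale for each array, and a difference is the cKO mean minus the control mean, also in log2. A probe was tested where 3 or more of the 6 arrays had it well above background, which held for all 11 member probes and for 22281 of 41174 probes in all. The 75th percentile of the signal was between 987 and 1148 units on the 6 arrays, between 49.3% and 57.7% of the spots on an array were well above background, and 0 spots were saturated. Pairs of arrays correlated at r between 0.948 and 0.989 across probes, and cKO array 3 stood furthest off, at 0.948 to 0.979 with the others. The 3 cKO arrays and control array 1 lay on slide 1 and control arrays 2 and 3 on slide 2, so the differences of the members and of the named genes of the anchor lists are also given with the slide as a term of the fit. With this layout that value equals the difference on slide 1, between the 3 cKO arrays and the single control array there. All 6 T-cell markers and all 5 regulatory T-cell markers, among them Cd3e, Cd4, Foxp3 and Il2ra, were well above background on all 6 arrays. Their levels were not all alike in the 2 genotypes. At the brightest probes the differences were 0.38 for Cd3d, −0.28 for Cd3e, 0.74 for Cd3g, 0.66 for Cd4, 0.062 for Cd2 and 0.11 for Cd5. For the regulatory T-cell markers they were −0.62 for Foxp3, −0.56 for Il2ra, 0.94 for Ctla4, 0.51 for Ikzf2 and 0.40 for Tnfrsf18. None had an adjusted p under 0.05 by limma. The markers of other cells moved with genotype in part. Their signals, relative to the 75th percentile and summed over the list, were 1.50 to 8.73 in cKO and 1.03 to 1.82 in control cells for the 3 NK-cell genes, of which Klrb1c was well above background on no array. Nearly all of this sum came from Klrd1 alone. In log2 it gave 2.96, 0.53 and 3.11 on the cKO arrays and 0.84, 0.12 and 0.014 on the control arrays, so the groups overlapped. The sums were 0.58 to 1.42 against 0.44 to 0.70 for the 5 B-cell genes, 0.48 to 1.05 against 0.19 to 0.38 for the 4 erythroid genes, with Alas2 at background, 1.30 to 1.95 against 0.81 to 0.90 for the 4 epithelial genes, with Krt8 at background, 0.39 to 0.55 against 0.54 to 0.95 for the 6 myeloid genes and 3.87 to 4.34 against 4.42 to 5.61 for the 2 CD8 genes. Their part in the differences below was not tested. In bulk RNA, fewer cells that express a gene and less RNA per cell cannot be told apart.

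Gpld1 was dim in both genotypes and higher in the cKO cells. Its single probe (NM_008156, chromosome 13, 25082382 to 25082441, mm9, from base 3235 of the transcript) gave −2.33, −2.22 and −1.03 on cKO arrays 1 to 3 and −3.81, −4.07 and −4.06 on control arrays 1 to 3. All cKO arrays lay above all control arrays, with a gap of 1.48 between the groups, and cKO array 3 was the highest by far. The means were −1.86 ± 0.72 in cKO and −3.98 ± 0.15 in control cells (SD, n = 3), a difference of 2.12, or 4.35-fold. This is the contrast for which the gene was chosen, and no p is given. With the slide as a term the difference was 1.95, and without cKO array 3 it was 1.71. The probe was well above background on all 6 arrays, yet the control values lay close to the lowest log2 signal that was still well above background, −3.97 on control array 1, −4.90 on control array 2 and −4.60 on control array 3. Correcting the background by normexp, which lifts dim signals, brought the difference to 1.51 with the 75th percentile and to 1.18 with quantile normalization.

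**Figure D1:**
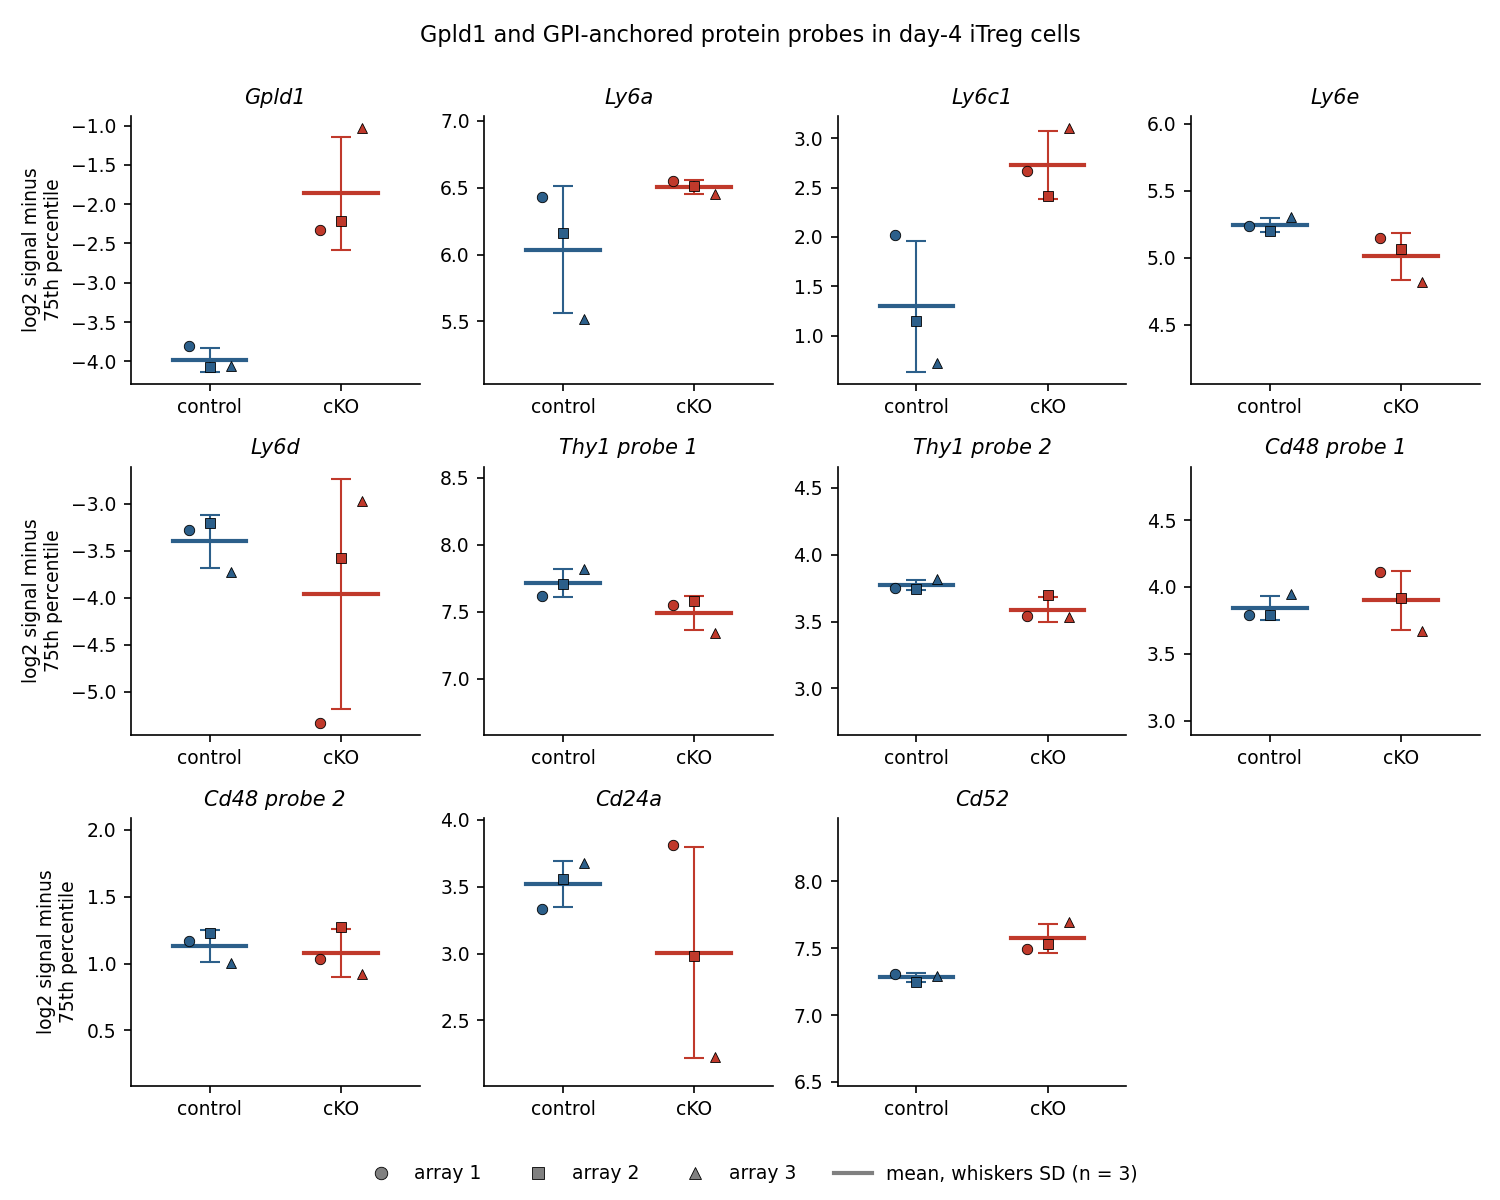
Levels of the 11 member probes, as log2 signal minus the 75th percentile of the array (vertical axis, each panel on its own scale), in control and cKO iTreg cells, with 1 point per array, the mean as a bar and the SD as whiskers (n = 3). Gpld1, Ly6a, Ly6c1 and Cd52 had every cKO array above every control array, and Ly6e and both Thy1 probes had every cKO array below.

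Of the 10 probes for the 8 anchored proteins, 0 passed an adjusted p of 0.05 (limma, Benjamini-Hochberg over all 22281 probes), where 0.242% of all tested probes did. At an unadjusted p under 0.05 there were 2, Ly6c1 and Cd52, both higher in cKO cells, beside 23.0% of all tested probes, 11.5% higher and 11.4% lower. The 2 of 10 are thus a share near that of all probes, and with the slide as a term the count was 0, beside 7.39% of all tested probes. The groups did not overlap for 6 of the 10, 3 higher and 3 lower, where 36.6% of all tested probes did not overlap, 15.9% higher and 20.7% lower. The median difference of the 10 was −0.12 and that of all tested probes −0.04.

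The Ly6 genes encode small anchored proteins of a single cysteine-rich fold, and most of those examined lie in a cluster on chromosome 15. Ly6g6c and Ly6g6d of the list of other anchored proteins lie on chromosome 17. Ly6c1, a marker of memory CD8 T cells, monocytes and endothelium that activated CD4 T cells can also carry, had the largest difference of the 8 genes. Its probe (NM_010741, chromosome 15, 74875712 to 74875771, minus strand) gave 2.67, 2.42 and 3.10 on the cKO arrays and 2.02, 1.16 and 0.73 on the control arrays. Every cKO array was above every control array, control array 1 being the nearest and control array 3 the lowest. The difference was 1.43 (SE 0.36, 95% interval 0.56 to 2.30), or 2.69-fold, and limma gave an unadjusted p of 0.0067 and an adjusted p of 0.13. With the slide as a term it was 0.71, with an unadjusted p of 0.077, and leaving out any 1 array kept it between 1.14 and 1.79.

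Ly6a, which encodes Sca-1, an antigen of stem cells and of activated T cells, was bright on all arrays. The probe (NM_010738, chromosome 15, 74825553 to 74825612, minus strand) gave 6.55, 6.51 and 6.45 on the cKO arrays and 6.43, 6.16 and 5.52 on the control arrays. The groups did not overlap, but control array 1 lay only 0.019 below the lowest cKO array, and the spread lay almost wholly in the control group (SD 0.47, against 0.049 in cKO). The difference of 0.47 (SE 0.24, 95% interval −0.11 to 1.04) did not pass (adjusted p = 0.28 by limma). It was 0.072 with the slide as a term and 0.21 without control array 3.

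Ly6e, known as thymic shared antigen 1 and as a factor that acts on viral entry, was slightly lower in cKO cells. Its probe (NM_008529, chromosome 15, 74789467 to 74789526) gave 5.15, 5.06 and 4.82 on the cKO arrays and 5.23, 5.20 and 5.30 on the control arrays. The groups were separated by 0.052, with cKO array 3 lowest. The difference of −0.24 (SE 0.12, 95% interval −0.53 to 0.061) did not pass (adjusted p = 0.28 by limma) and was −0.22 with the slide as a term.

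Ly6d, a marker of early B-cell progenitors, was near background. Its probe (NM_010742, chromosome 15, 74592551 to 74592610, minus strand) gave −5.33, −3.58 and −2.97 on the cKO arrays and −3.27, −3.20 and −3.72 on the control arrays. The groups overlapped, and cKO arrays held both the lowest value, on array 1, where the spot was not well above background, and the highest, on array 3. The difference of −0.56 (SE 0.59, 95% interval −1.99 to 0.87, adjusted p = 0.57 by limma) was −0.69 with the slide as a term and turned to 0.12 without cKO array 1 and to 0.30 with normexp and the 75th percentile.

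The Ly6 genes were also read in their chromosomal order. Ordered along chromosome 15, the tested Ly6 genes of that chromosome were Ly6d, Ly6k, Ly6e, Ly6i, Ly6a, Ly6c1, Ly6c2, Ly6f and Ly6h. The 5 from Ly6i to Ly6f each had every cKO array above every control array, as did 15.9% of all tested probes, with differences of 0.57 for Ly6i, 0.47 for Ly6a, 1.43 for Ly6c1, 0.40 for Ly6c2 and 1.29 for Ly6f. Of the 5, 0 passed the adjusted p and Ly6c1 and Ly6f alone had an unadjusted p under 0.05 in limma, and this run of genes was picked out after its values were seen, so it has no test. Control array 3 was the lowest of the 6 arrays for each of the 5. Within slide 1 the differences were 0.14, 0.072, 0.71, 0.073 and 1.02 in the same order, and without control array 3 they were 0.28, 0.21, 1.14, 0.19 and 0.97. The values of Ly6c1 and Ly6f were thus the highest of the 5 on slide 1 too, and those of Ly6i, Ly6a and Ly6c2 were 0.14 or less there. Apart from the Ly6a and Ly6c1 pair shown above, no pair among the Ly6a, Ly6c1, Ly6c2, Ly6i, Ly6f, Ly6e and Ly6d probes matched at more than 17 of 30 bases. Probes were compared with probes here, so whether a probe also binds the transcript of a paralog was not tested.

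**Figure D2:**
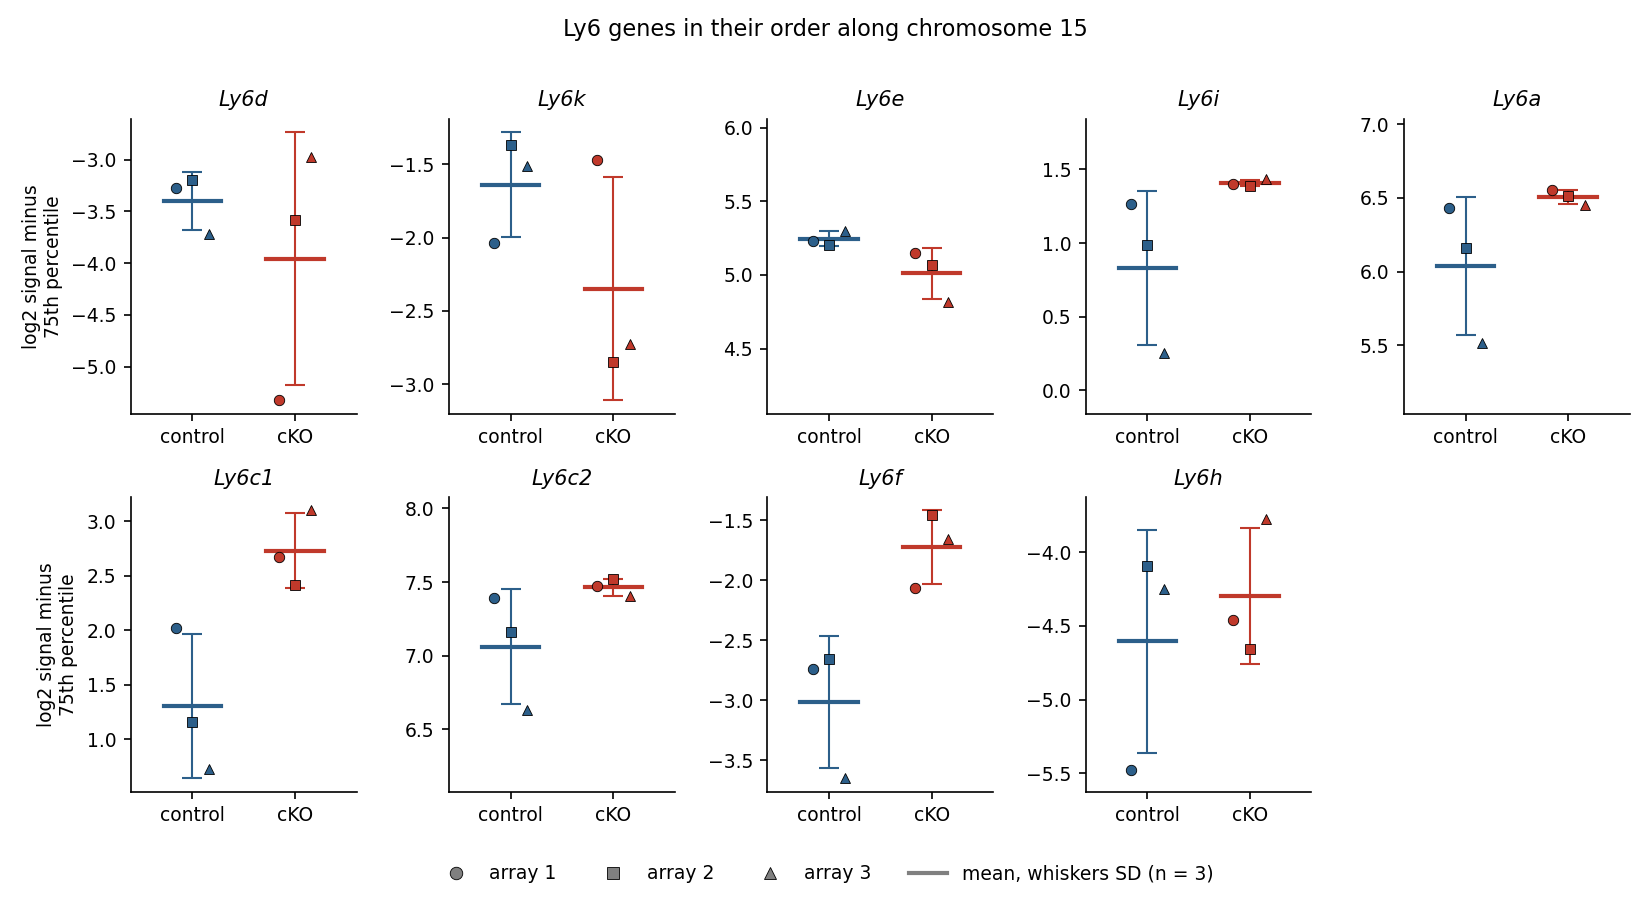
Levels of the 9 tested Ly6 genes of chromosome 15 in their order along it, as log2 signal minus the 75th percentile of the array (vertical axis, each panel on its own scale), with 1 point per array, the mean as a bar and the SD as whiskers (n = 3). From Ly6i to Ly6f, control array 3 was lowest in every panel and the cKO arrays lay above the control arrays.

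Thy1 (CD90), the anchored immunoglobulin-like protein that marks mouse T cells, was bright and slightly lower in cKO cells at both of its probes. Probe 1 (NM_009382, chromosome 9, 43856600 to 43856659) gave 7.55, 7.58 and 7.34 on the cKO arrays and 7.61, 7.71 and 7.82 on the control arrays. Probe 2 (chromosome 9, 43854991 to 43855436) gave 3.54, 3.70 and 3.53 on the cKO arrays and 3.75, 3.75 and 3.81 on the control arrays. Probe 2 spans 446 bases of the genome with its 60 bases, so it crosses a splice junction. At each probe all cKO arrays lay below all control arrays, by 0.033 and 0.049 at the nearest. The differences were −0.22 (SE 0.12, 95% interval −0.51 to 0.061) and −0.18 (SE 0.10, 95% interval −0.42 to 0.062), and neither passed (adjusted p = 0.29 and 0.31 by limma). The probes thus gave differences of like size from separate parts of the transcript. They were −0.12 and −0.16 with the slide as a term.

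Cd52, a very short glycopeptide on lymphocytes that is almost wholly anchor and sugar, was among the bright members and higher in cKO cells. Its probe (NM_013706, chromosome 4, 133649505 to 133649564, minus strand) gave 7.49, 7.53 and 7.70 on the cKO arrays and 7.31, 7.25 and 7.29 on the control arrays. The groups were separated by 0.19 and cKO array 3 was the highest. The difference was small but tight, 0.29 (SE 0.10, 95% interval 0.041 to 0.54), or 1.22-fold, with an unadjusted p of 0.029 and an adjusted p of 0.19 by limma. With the slide as a term it was 0.27. The unadjusted p was 0.074 without control array 1, 0.11 without control array 2 and 0.068 without control array 3, and with normexp and the 75th percentile the difference was 0.011.

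Cd48, the anchored ligand of CD2 and CD244, differed by less than its spread. Probe 1 (NM_007649, chromosome 1, 173635107 to 173635165) gave 4.11, 3.92 and 3.67 on the cKO arrays and 3.79, 3.79 and 3.95 on the control arrays. Probe 2 (chromosome 1, 173625933 to 173625992) gave 1.04, 1.28 and 0.92 on the cKO arrays and 1.17, 1.23 and 1.00 on the control arrays. The groups overlapped at both. The differences were 0.058 (95% interval −0.29 to 0.40) and −0.055 (95% interval −0.38 to 0.27), each with an adjusted p of 0.82 by limma, and a difference above 0.40 in either direction lies outside both intervals. They were 0.11 and −0.089 with the slide as a term.

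Cd24a, the heat-stable antigen carried by immature lymphocytes, varied most within the cKO group among the bright members. Its probe (NM_009846, chromosome 10, 43303706 to 43303765) gave 3.81, 2.98 and 2.23 on the cKO arrays and 3.33, 3.55 and 3.67 on the control arrays. The groups overlapped, since cKO array 1 was the highest of the 6 and cKO array 3 the lowest. The difference of −0.51 (SE 0.39, 95% interval −1.45 to 0.42) did not pass (adjusted p = 0.43 by limma), and it was −0.33 with the slide as a term, −0.92 without cKO array 1 and −0.13 without cKO array 3.

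**Figure D3:**
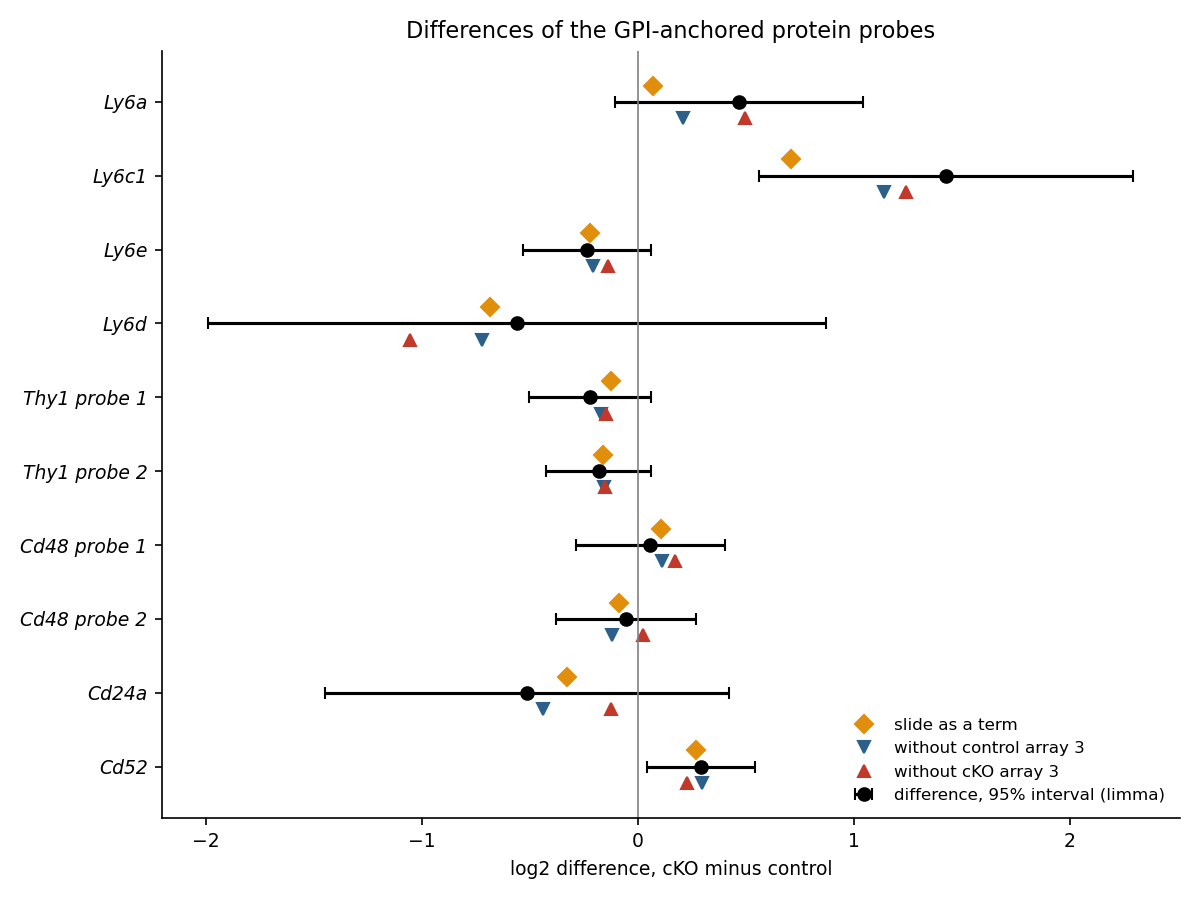
Log2 difference, cKO minus control, for the 10 probes of the 8 anchored proteins (horizontal axis), with the 95% interval of limma over 3 arrays per genotype (black), the value with the slide as a term (diamonds) and the values without control array 3 or cKO array 3 (triangles). The intervals of Ly6c1 and Cd52 exclude 0 before adjustment, and the slide term brings Ly6a from 0.47 to 0.072 and Ly6c1 from 1.43 to 0.71.

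The members were also set beside the array pattern of Gpld1. Over the 6 arrays, Cd52 had Pearson r = 0.995 with Gpld1, Ly6c1 0.91, Ly6a 0.62, Ly6e −0.92, the Thy1 probes −0.91 and −0.87, Cd24a −0.74, the Cd48 probes −0.13 and −0.40 and Ly6d −0.081. These 6 points share the split by genotype and the high value of cKO array 3, and many genes do the same. Of 12556 genes with a probe well above background on all 6 arrays, 439 (3.50%) had r over 0.95 with Gpld1, and 8 had a higher r than Cd52. The 5 highest were Pld3, a protein of the phospholipase D family (r = 0.999), Tle2, a Groucho-type corepressor (0.999), Gpbp1l1 (0.997), Akr1b10, an aldo-keto reductase (0.996), and Mpp5, a polarity scaffold (0.996). Pld3 gave 2.65, 2.68 and 2.96 on the cKO arrays and 2.26, 2.23 and 2.20 on the control arrays, a difference of 0.54. Tle2 differed by more, with −1.18, −1.02 and 0.29 on the cKO arrays and −3.11, −3.38 and −3.20 on the control arrays, a difference of 2.59. In both, as in Gpld1, cKO array 3 was the highest and the control arrays lay close together, a likeness that follows from their choice by r.

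The other enzymes that release anchored proteins gave other values than Gpld1. Since Gpld1 was chosen for its rise, this contrast is a description and not a test. Of the 4 examined, Tmem8, a phospholipase A2 for GPI anchors, gave 0.27, 0.51 and 0.36 on the cKO arrays and 0.49, 0.46 and 0.21 on the control arrays. The groups overlapped and the difference was −0.0046 (SE 0.13, adjusted p = 0.99 by limma), and −0.11 with the slide as a term. Gdpd5, a glycerophosphodiesterase that cuts the anchor, gave 0.38, 0.51 and 0.054 on the cKO arrays and 0.69, 0.79 and 1.28 on the control arrays. The cKO arrays were all below the lowest control array, with a difference of −0.61 (SE 0.20, unadjusted p = 0.022, adjusted p = 0.18 by limma) that was −0.38 with the slide as a term. Gdpd2, of the same family as Gdpd5, and Notum, which releases glypicans and acts on Wnt proteins, were not well above background on any array.

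Anchor synthesis was measured by 30 genes, of which 28 had a tested probe. Taking the brightest tested probe of each gene, 13 differences were above 0 and 15 below, with a median of −0.06 beside −0.05 for the brightest tested probes of all genes. An adjusted p under 0.05 was reached by 0 of the 28 and an unadjusted p under 0.05 by 3, where 23.5% of all genes reached it. All 3 were lower in cKO cells, or 10.7% of the 28, which is near the 11.5% of all genes that were lower at this p. With quantile normalization 1 gene was higher at this p, and with normexp and quantile 2. Under these settings 5248 and 5366 of all 22281 tested probes had such a p in either direction. Pigz, which adds the fourth mannose to the anchor, had the largest difference, with −0.22, −0.72 and −2.60 on the cKO arrays and 0.88, 1.05 and 1.85 on the control arrays. The groups did not overlap, and cKO array 3 was again the extreme. The difference was −2.44 (SE 0.64, unadjusted p = 0.0081, adjusted p = 0.14 by limma), or 5.42-fold lower, and −2.06 with the slide as a term (unadjusted p = 0.075). Pigm, the first mannosyltransferase, differed by −0.49 (adjusted p = 0.14 by limma), by −0.54 with the slide as a term and by −0.11 with normexp and the 75th percentile. Pigw, which acylates the inositol, differed by −0.95 (adjusted p = 0.15), by −0.75 with the slide as a term (unadjusted p = 0.11), and turned to 0.32 with normexp and the 75th percentile. With the slide as a term 1 of the 28 genes, Pigm, had an unadjusted p under 0.05, beside 7.39% of all tested probes. Pigv, the second mannosyltransferase, and Pgap1, which removes the acyl chain again, were too dim to be tested.

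**Figure D4:**
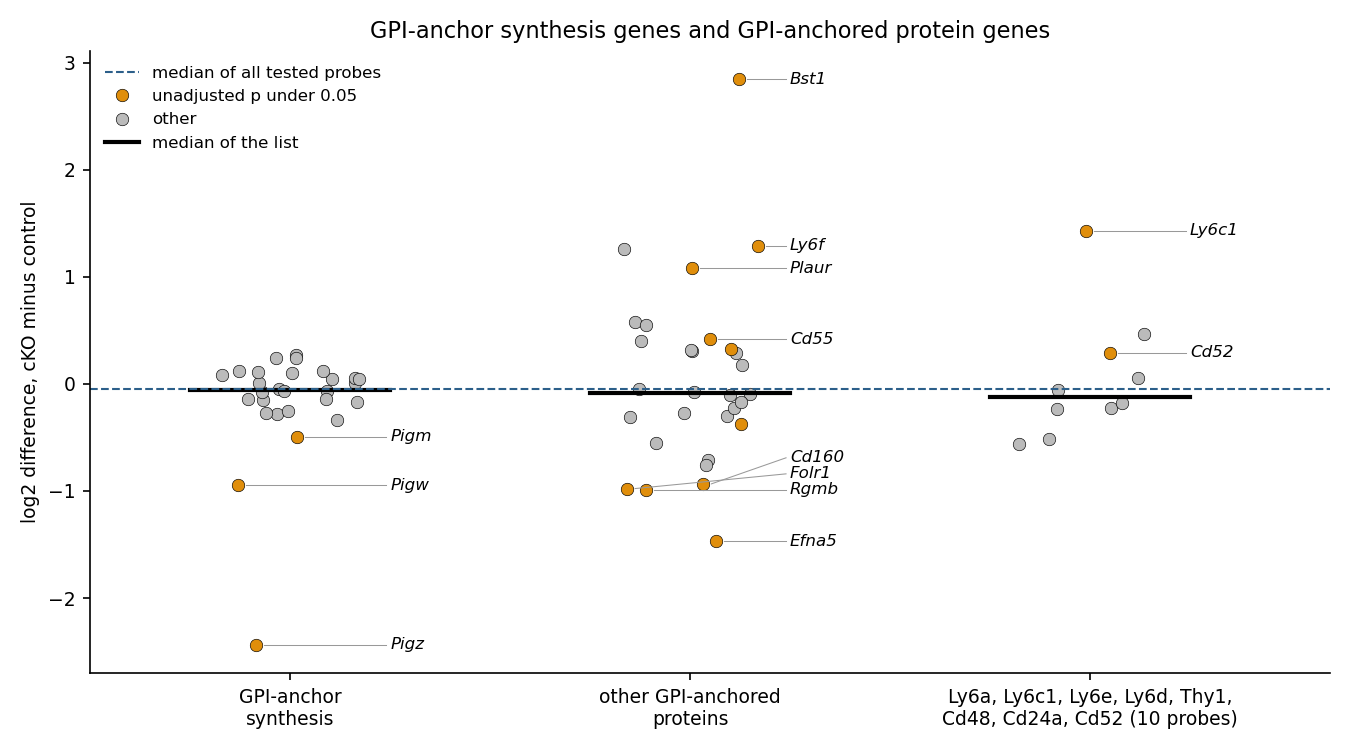
Log2 difference, cKO minus control (vertical axis), of the brightest tested probe of 28 genes of GPI-anchor synthesis and of 30 other GPI-anchored protein genes, and of the 10 probes of the 8 anchored proteins, spread sideways for legibility. Orange points had an unadjusted p under 0.05 in limma, black bars are list medians (−0.06, −0.09 and −0.12) and the dashed line is the median of all tested probes (−0.04).

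Of 68 other genes for GPI-anchored proteins, 65 were on the array and 30 had a tested probe, while 35 were too dim. The 30 were split into 13 above 0 and 17 below, with a median of −0.09, and 0 passed the adjusted p. An unadjusted p under 0.05 was reached by 10 (33.3%), 5 higher and 5 lower, where 12.0% and 11.5% of all genes were higher and lower at this p. With the slide as a term the count was 5, beside 7.39% of all tested probes, and it was 2 under normexp scaled to the 75th percentile, beside 7.45%. Of the 30, Bst1 alone passed the filter on dim probes through 1 genotype only, and without it the count was 9 of 29.

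Among those higher in cKO cells, Bst1 (CD157), an anchored ADP-ribosyl cyclase of myeloid and stromal cells, gave −3.17, −2.94 and −0.99 on the cKO arrays and −4.18, −5.67 and −5.78 on the control arrays. No control array was well above background and all 3 cKO arrays were. With each control array set at its dimmest signal still well above background, the cKO mean was 4.36-fold higher. This figure belongs to the main scaling and rests in part on cKO array 3, without which it was 2.70-fold. The gene entered the fit through the cKO arrays alone, so its p is no support for a rise. With the slide as a term its measured log2 difference went from 2.85 to 1.81, and the lowest value under any alternative was 1.27. Ly6f, described above with its cluster, differed by 1.29 (adjusted p = 0.12 by limma), and with the slide as a term its unadjusted p was 0.064. Plaur, the urokinase receptor, gave 1.59, 2.39 and 1.74 on the cKO arrays and 1.14, 1.21 and 0.13 on the control arrays, a difference of 1.08 (adjusted p = 0.18 by limma) that was 0.76 with the slide as a term. Cd55, the decay-accelerating factor that protects cells from complement, differed by 0.42 at its brightest probe (adjusted p = 0.16), which was 0.60 with the slide as a term, and by 0.13 at a dimmer one.

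Among those lower in cKO cells, Efna5 (ephrin-A5), an anchored ligand of Eph receptors, had the smallest p of the list. It gave −2.96, −2.98 and −3.89 on the cKO arrays and −1.71, −1.86 and −1.84 on the control arrays. The groups were well apart, the difference was −1.47 (SE 0.27, adjusted p = 0.093 by limma), or 2.77-fold lower. It was −1.56 with the slide as a term, −0.89 with normexp and quantile and −0.35 with normexp and the 75th percentile, where the unadjusted p was 0.42. Rgmb, a repulsive guidance molecule and BMP co-receptor, differed by −0.99 (adjusted p = 0.11), Folr1, the folate receptor α, by −0.98 (adjusted p = 0.12) and Cd160, a receptor of natural killer and T cells, by −0.93 (adjusted p = 0.13). They were −0.69, −0.67 and −1.33 with the slide as a term. With normexp and the 75th percentile Rgmb was −0.26, and the last 2 turned to 0.16 and 0.23, and each was well above background on only 2 of the 3 cKO arrays.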

How the data were processed

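Cy3-labelled cRNA from 0.5 μg of RNA was hybridized to 1-colour Agilent arrays (design 014868, mm9 coordinates), 3 per genotype. The deposited scanner files give an intensity for each spot, which the authors' software (Agilent Feature Extraction, version 10.7.3.1 in the file headers and 9.1 in the submitters' processing notes) had background-subtracted and not scaled between arrays. The table deposited by the authors holds log2 values of the same arrays, on which replicates were not pooled, and served as an alternative. It contributed no other result.

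Here, log2 of the processed intensity was taken relative to each array's 75th percentile over non-control spots. Outlier spots were left out before replicate spots were averaged. The 22281 of 41174 probes that 3 or more of the 6 arrays had well above background were fitted with limma 3.58.1 in R 4.3.3 (lmFit, eBayes, cKO minus control, no covariate), with Benjamini-Hochberg adjustment over all of them. The fit was run on simulated data with independent noise and planted changes larger than any member difference. No slide effect was simulated, so this run does not show how well differences of the size seen here are found. Tables and figures were made with Python 3.11.15. All 11 member probes had an accession that RefSeq names alike. No genome annotation of mm9 was used, so exons are not given. The number of arrays limits the precision.

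The members, the gene lists and the tests were chosen with earlier results of these data known. Named beside the members were, of each list, genes past adjusted p and the 4 with the smallest unadjusted p in each direction among those under 0.05, all genes of the release list, and the 5 genes most correlated with Gpld1. Alternatives were quantile normalization, scaling on the median, normexp background correction (offset 50), the authors' table, other filters on dim probes, a term for the replicate number or for the slide, the Student t-test named for the study's comparisons, eBayes with trend and robust fitting, each array left out, and the mean over a gene's probes. The 75th percentile over probes and leaving out genes seen in 1 genotype alone were added after the data were seen.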

Additional observations from a re-analysis of the deposited data

How the results depend on the processing

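Of the 10 probes of anchored proteins, 0 passed the adjusted p under every alternative run. The Gpld1 difference stayed between 1.71 and 2.36 with an array left out and moved to 1.51 with normexp and the 75th percentile and to 1.18 with normexp and quantile. The number of the 10 with an unadjusted p under 0.05 went from 2 to 1 without a filter, with the replicate block and with normexp and the 75th percentile, to 0 with the slide as a term, and lay between 1 and 3 with an array left out. Without control array 2 or 3 it was 1 (Ly6c1). For anchor synthesis the count went from 3 to 5 with quantile normalization, normexp and quantile or the authors' table and to 1 with normexp and the 75th percentile or the slide as a term, and for the other anchored proteins from 10 to 2 with normexp and the 75th percentile and to 5 with the slide as a term. With an array left out these were 3 to 4 and 8 to 12. Over all tested probes the share at this p was 23.0%, against 7.39% with the slide as a term (7.45% for normexp scaled to the 75th percentile). As counts of 22281 probes, it was 5120 in the main fit, 5248 with quantile normalization, 5366 with normexp and quantile and 5228 with the authors' table. The count was 3627 with the replicate block and 2865 to 6465 with an array left out, and 4705 of 41174 without a filter. The direction turned with normexp and the 75th percentile for Ly6d (0.30), Cd48 probe 1 (−0.13), Pigw (0.32), Folr1 (0.16) and Cd160 (0.23), against a median of all probes that this setting moved from −0.04 to 0.11. It turned for Tmem8 with quantile normalization (0.0026), the percentile over probes (0.0016) and the authors' table (0.0031). With an array left out, Ly6d lay between −1.05 and 0.12, Cd48 probe 1 between −0.047 and 0.17, Cd48 probe 2 between −0.15 and 0.023 (above 0 without cKO array 3) and Tmem8 between −0.094 and 0.050. The cause of these shifts was not tested. Within slide 1, Ly6a (0.072), Ly6c1 (0.71), Cd55 (0.60), Rgmb (−0.69) and Cd160 (−1.33) moved by more than 1 SD.

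The labels do not say whether same-numbered arrays belong together. Deviations from the group means correlated at −0.14, 0.01 and −0.19 between same-numbered arrays. Control arrays 2 and 3 lay on another slide than the rest, so these values cannot show that the samples were unpaired. With the replicate block the Cd52 difference of 0.29 had an unadjusted p of 0.078 and Ly6c1 0.015 in limma, and 0 of all probes passed the adjusted p. Over all probes, 54 passed it, 29 with the percentile over probes, 28 with quantile normalization or the authors' table, 77 with the median, 115 with normexp and quantile, 174 with all arrays above background and 105 with trend and robust fitting. None (0) did so with no filter, normexp and the 75th percentile, the slide as a term or the t-test (4018 at an unadjusted p), and 0 or 1 with an array left out. The signals of Gpld1 and Ly6d lay near the background, where differences depend most on its correction.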
